A study of Mus musculus with 12 samples.

Results

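The genes described here code for potassium, sodium and calcium channels and their partner subunits. They were taken by name, as every probe whose gene name in the files begins with Kcn (leaving out Kcnq1ot1) or Cacn, or is Scn followed by a number. Of the 41174 probes on the array, 195 met the rule, and they cover 121 of 27962 gene names. The names reach beyond the voltage-gated channels: inward rectifier channels (Kcnj), two-pore-domain channels (Kcnk), channels opened by calcium or sodium inside the cell, and auxiliary subunits that form no pore are included. The members are therefore described by family, 11 in all.

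RNA came from 12 cultures of mouse neural progenitor cells (dividing precursors of neurons and glia) of the 129/Ola strain. Of these, 10 were infected with a pMXs-IRESNeo retrovirus that carried the open reading frame of 1 transcription factor: Crebzf, Esx1, Etv6, Gatad2b, Hmga2, Nfxl1, Pax6, Pdx1, Sox11 or Zfp451. Another culture received the same vector with EGFP, a fluorescent protein, and the last was labelled mock. The virus dose was set so that about 95% of cells expressed the insert, G418, a drug to which the vector gives resistance, was added at 24 h, and the infected cultures were harvested at 72 h. The sources used here do not say whether the mock culture met any virus or G418. The series title speaks of factors that interfere and factors that do not, without saying in the labels which is which. Every group therefore held 1 culture on 1 array, the infected ones being selected pools of cells, so that no difference has a replicate check and no p-value was computed.

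Voltage-gated channels open when the membrane potential changes. Sodium channels (Scn) carry the upstroke of the action potential, potassium channels (Kcn) restore and hold the resting potential, and calcium channels (Cacn) let in the calcium that drives transmitter release, contraction and gene activity. Each is a pore-forming subunit joined by auxiliary subunits that set its gating and its number at the cell surface. Neural progenitors are not yet excitable in the way neurons are, and they take on sodium, calcium and fast potassium channels as they mature.

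Levels are log2 signals relative to the 75th percentile of the same array, so that a level of 0 is that percentile and levels of different probes cannot be set against each other. A probe was called higher on a factor's array where its level was at least 2-fold above both the EGFP and the mock array, and lower where it was at least 2-fold below both, with the brighter side well above background by the scanner's flag. Differences are given from the mean of both controls, and a fold is written as "at least" where the dimmer side was not well above background. EGFP and mock are shared by the 10 comparisons, and a deviation of either one moves all of them. The 12 arrays lay on 3 slides of 4. EGFP, mock, Hmga2 and Pax6 shared slide 1, Gatad2b, Etv6, Esx1 and Nfxl1 shared slide 2, and Crebzf, Pdx1, Sox11 and Zfp451 shared slide 3. On slide 3 every array carried the pattern described in the following paragraphs, so slide and factor cannot be told apart there.

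No spot was saturated, 62.9% to 69.4% of spots were well above background, and the arrays' 75th percentiles ran from 823.5 to 1026 signal units. The overexpressed genes did not mark their own arrays. Probes for all 10 factors were on the array, and only Pax6 had a probe called higher on the array labelled with it, by 1.35. The same Pax6 probe was higher by 1.76 on the array labelled Esx1 and by 1.34 to 1.61 on those labelled Crebzf, Pdx1, Sox11 and Zfp451. Whether these probes lie in the cloned open reading frames was not examined here, and a probe outside the frame does not read the vector's transcript. Whether the labels match the cultures was not tested. The arrays are accordingly named by their labels throughout. Of 10 neural progenitor markers, 7 were well above background on all 12 arrays and none was dim everywhere.

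Many channel genes were dim in these cells. Of the 195 probes, 62 (48 genes) were well above background on all 12 arrays, or 31.8% against 59.3% of all probes. Another 77 probes were well above background on no array (39.5% against 23.8% of all probes), and 38 genes had no probe that was. Those named in the text by family are given no value. The remaining 35 genes were bright on some arrays only.

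In all, 51 probes (39 genes) were called on at least 1 factor array, 26.2% of the channel probes, where 21.7% of all probes were. Of these, 34 were called in the higher direction only, 15 in the lower only, and 2 in both. The calls fell on the same arrays for most genes. On the array labelled Pax6, 25 channel probes were called higher, which is 12.8% of them where 7.52% of all probes were, and 6 lower (3.08% against 4.77%). On that labelled Esx1 the counts were 23 higher (11.8% against 7.15%) and 10 lower (5.13% against 5.81%). On slide 3, Crebzf had 26 higher (13.3% against 6.62%) and 7 lower (3.59% against 4.78%), and Pdx1 had 23 higher (11.8% against 6.63%) and 9 lower (4.62% against 5.18%). Sox11 had 24 higher (12.3% against 6.56%) and 14 lower (7.18% against 5.2%), and Zfp451 had 27 higher (13.8% against 6.56%) and 7 lower (3.59% against 4.65%). On each of these 6 arrays the share of channel probes called higher was above that of all probes, and the share called lower was near it or below it except on that labelled Sox11. A lower call needs controls well above background, and a probe dim on both controls can only be called higher. Fewer channel probes were bright on all 12 arrays (31.8% against 59.3% of all probes), so fewer could be called lower. The higher and lower shares are therefore not on equal terms. The lower share on Pax6 moved with the scaling: with quantile normalization 23 channel probes were called higher there (11.8% against 6.59% of all probes) and 12 lower (6.15% against 5.56%).

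**Figure D1:**
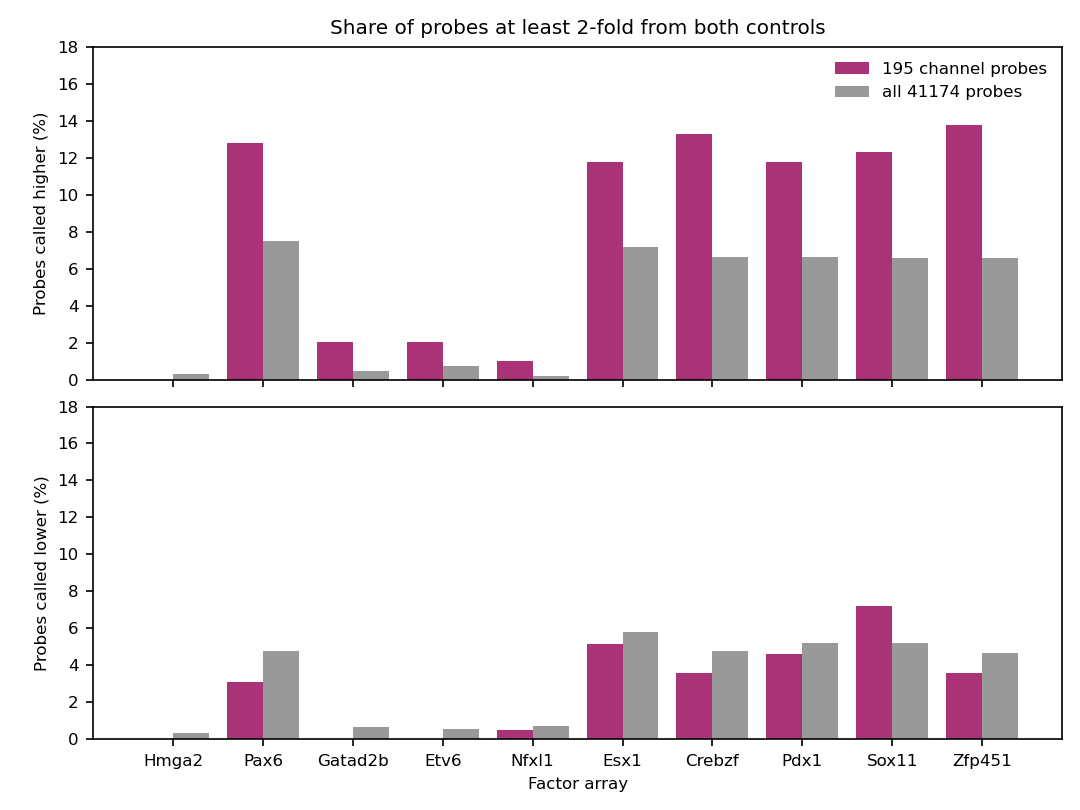
Share of probes called higher (top) and lower (bottom) on each factor array, in percent, for the 195 channel probes and for all 41174 probes on the array. Channel probes called higher reach 11.8% to 13.8% on 6 arrays, where all probes reach 6.56% to 7.52%.

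The other 4 factor arrays held few calls. The array labelled Hmga2 had none among the channels, where 0.304% of all probes were called higher and 0.328% lower. Those labelled Gatad2b and Etv6 had 4 higher each (2.05%, against 0.437% and 0.707% of all probes) and none lower, where 0.68% and 0.571% of all probes were. Nfxl1 had 2 higher (1.03% against 0.197%) and 1 lower (0.513% against 0.699%). The arrays labelled Pax6, Esx1, Crebzf, Pdx1, Sox11 and Zfp451 are referred to together as the 6 arrays, which says where calls fell and names no group of the study. A probe called on all 6 lies at least 2-fold from both controls there by the rule. Where ranges are said below to be apart, the gap to the controls is therefore no separate finding. How many of all probes show such gaps was not counted.

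On the 6 arrays, 18 probes (14 genes) were called higher on at least 6 factor arrays, 9.23% of the channel probes where 4.51% of all probes were. A further 5 probes (5 genes) were called lower on at least 6, 2.56% against 2.52%. The median difference of all bright probes from the controls was -0.06 on the array labelled Pax6 and -0.15 to -0.13 on the other 5 of the 6 arrays. Over all 195 channel probes the median difference equalled that of all probes on each of the 6 arrays, from -0.29 on Pdx1 to 0.05 on Zfp451. On these arrays that value is the one probes dim on both sides take, the difference between the arrays' floors. The equality therefore says nothing of the brighter probes. Among 62 channel probes with a mean level above -5.45, the median difference ran from 0.12 (Crebzf) to 0.35 (Pax6) on the 6 arrays. Among the 24273 of all probes above that level it ran from -0.13 (Pdx1) to -0.05 (Pax6).

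**Figure D2:**
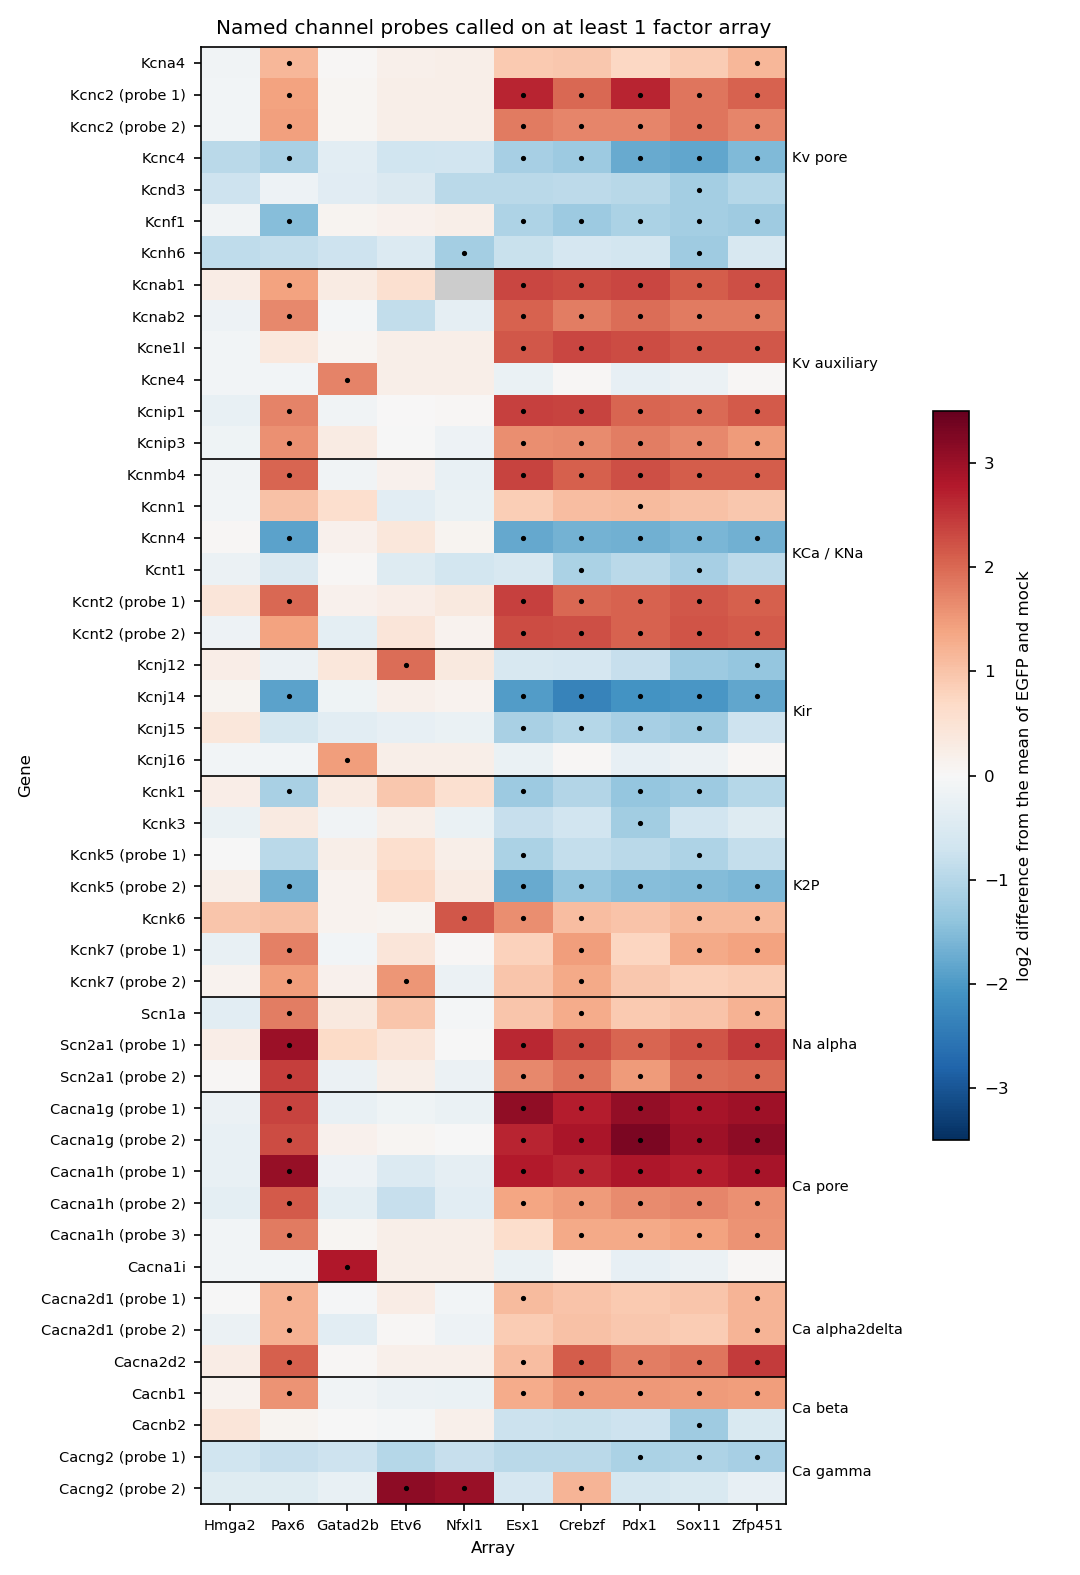
Log2 difference from the mean of EGFP and mock (colour) for 46 channel probes (36 genes) called on at least 1 of the 10 factor arrays, in rows grouped by family, with a dot where the probe was called and grey where an outlier flag left no value. Most dots lie in the columns of Pax6, Esx1, Crebzf, Pdx1, Sox11 and Zfp451, and the darkest red rows are the calcium channel genes Cacna1g and Cacna1h.

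The calcium channels held the largest difference among the members. Cacna1g and Cacna1h code for the pore of the low-voltage-activated, T-type channels, which open near the resting potential. The brighter Cacna1g probe lies at chr11:94517588-94517647 (build mm7, as the files give it). Its level was -2.15 on EGFP and -2.29 on mock, and -2.43, -2.48, -2.36 and -2.45 on Hmga2, Gatad2b, Etv6 and Nfxl1. It was 0.14 on Pax6, 0.89 on Esx1, 0.51 on Crebzf, 0.84 on Pdx1, 0.66 on Sox11 and 0.74 on Zfp451. No array lay between these ranges, and the 6 arrays were 5.14-fold (Pax6) to 8.65-fold (Esx1) above the control mean. The second Cacna1g probe gave 4.84-fold on Pax6 to 9.73-fold on Pdx1.

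Cacna1h showed the same split. The probe at chr17:23557893-23557952 stood at -1.81 on EGFP, -1.97 on mock, and -2.16, -2.07, -2.37 and -2.21 on Hmga2, Gatad2b, Etv6 and Nfxl1. On Pax6 it stood at 1.15, on Esx1 at 0.88, on Crebzf at 0.79, on Pdx1 at 0.96, on Sox11 at 0.85 and on Zfp451 at 1.003. These are 6.4-fold (Crebzf) to 8.22-fold (Pax6) above the control mean, and the groups did not overlap. A second probe, dimmer, was called on the same 6 arrays at 2.6-fold to 4.41-fold, and another, not well above background on either control, on 5 of them at least 2.5-fold. The last Cacna1h probe bright on any array was called on none, with a difference of 1.04 on Pax6 and 0.17 to 0.74 on the others of the 6. The third T-type gene, Cacna1i, was well above background on the array labelled Gatad2b only, as given further on.

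The pores of the high-voltage-activated calcium channels moved less. Cacna1a, Cacna1b, Cacna1c and Cacna1s (P/Q-, N- and 2 L-type channels) were well above background on all 12 arrays and none was called, with differences from -1.03 to 0.95 over their 6 bright probes and all factor arrays. Cacna1d was bright on mock and Zfp451 only and Cacna1e on mock only, and Cacna1f was dim on every array. Thus 3 of the 10 genes of this family were called higher on some array and none lower. By probe these were 6 of 22, where 21.7% of all probes were called on some factor array in either direction.

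The auxiliary calcium channel subunits bring the pore to the membrane and tune it. Cacnb1, a cytoplasmic beta subunit, stood at -2.54 on both EGFP and mock, and at -2.43, -2.67, -2.74 and -2.78 on Hmga2, Gatad2b, Etv6 and Nfxl1. It stood at -0.98 on Pax6, -1.25 on Esx1, -1.02 on Crebzf, -1.03 on Pdx1, -1.06 on Sox11 and -1.09 on Zfp451, which is 2.44-fold to 2.95-fold above the control mean. The nearest arrays, Esx1 and Hmga2, were more than 1 apart. Cacnb3 and Cacnb4 were bright and not called, and 1 dim probe of Cacnb2 was called lower on Sox11, where its brighter probes were not. Cacna2d1, an extracellular alpha2delta subunit, was called higher on Pax6, Esx1 and Zfp451 with differences of 1.11 to 1.21, and its differences on Crebzf, Pdx1 and Sox11 were 0.90 to 0.99 on the same probe.

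Cacna2d2, another alpha2delta subunit, gave different answers by probe. A probe that was dim on both controls was called higher on the 6 arrays, at least 2.13-fold (Esx1) to at least 5.45-fold (Zfp451). The bright probe was called on none. Its level was 1.47 on EGFP and 1.57 on mock, 1.27 to 1.51 on Hmga2, Pax6 and the slide 3 arrays, and 0.69 to 0.76 on Gatad2b, Etv6, Esx1 and Nfxl1, the arrays of slide 2. Cacna2d3 was dim everywhere.

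Of the gamma subunits, Cacng2 (stargazin, better known as a partner of AMPA-type glutamate receptors) also gave different answers by probe. The probe bright on all 12 arrays stood at -4.51 on EGFP and -4.58 on mock and was lower on every factor array, between -5.71 and -5.24. It was called lower on Pdx1, Sox11 and Zfp451. Another probe was dim on most arrays but stood at -3.19 on Etv6 and -3.30 on Nfxl1, at least 8.8-fold and at least 8.14-fold above the controls, and at -5.13 on Crebzf. The remaining Cacng2 probes were well above background on no array, so this rise rests on 1 probe. Cacng7 and Cacng8 were bright and not called, and Cacng3 and Cacng5 were dim everywhere. Under a background correction by normexp, the calls of both Cacna1g probes, the brightest Cacna1h probe and Cacnb1 on the 6 arrays were made again, while those of the dimmer Cacna1h probes and of Cacna2d2 were not made on any array.

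**Figure D3:**
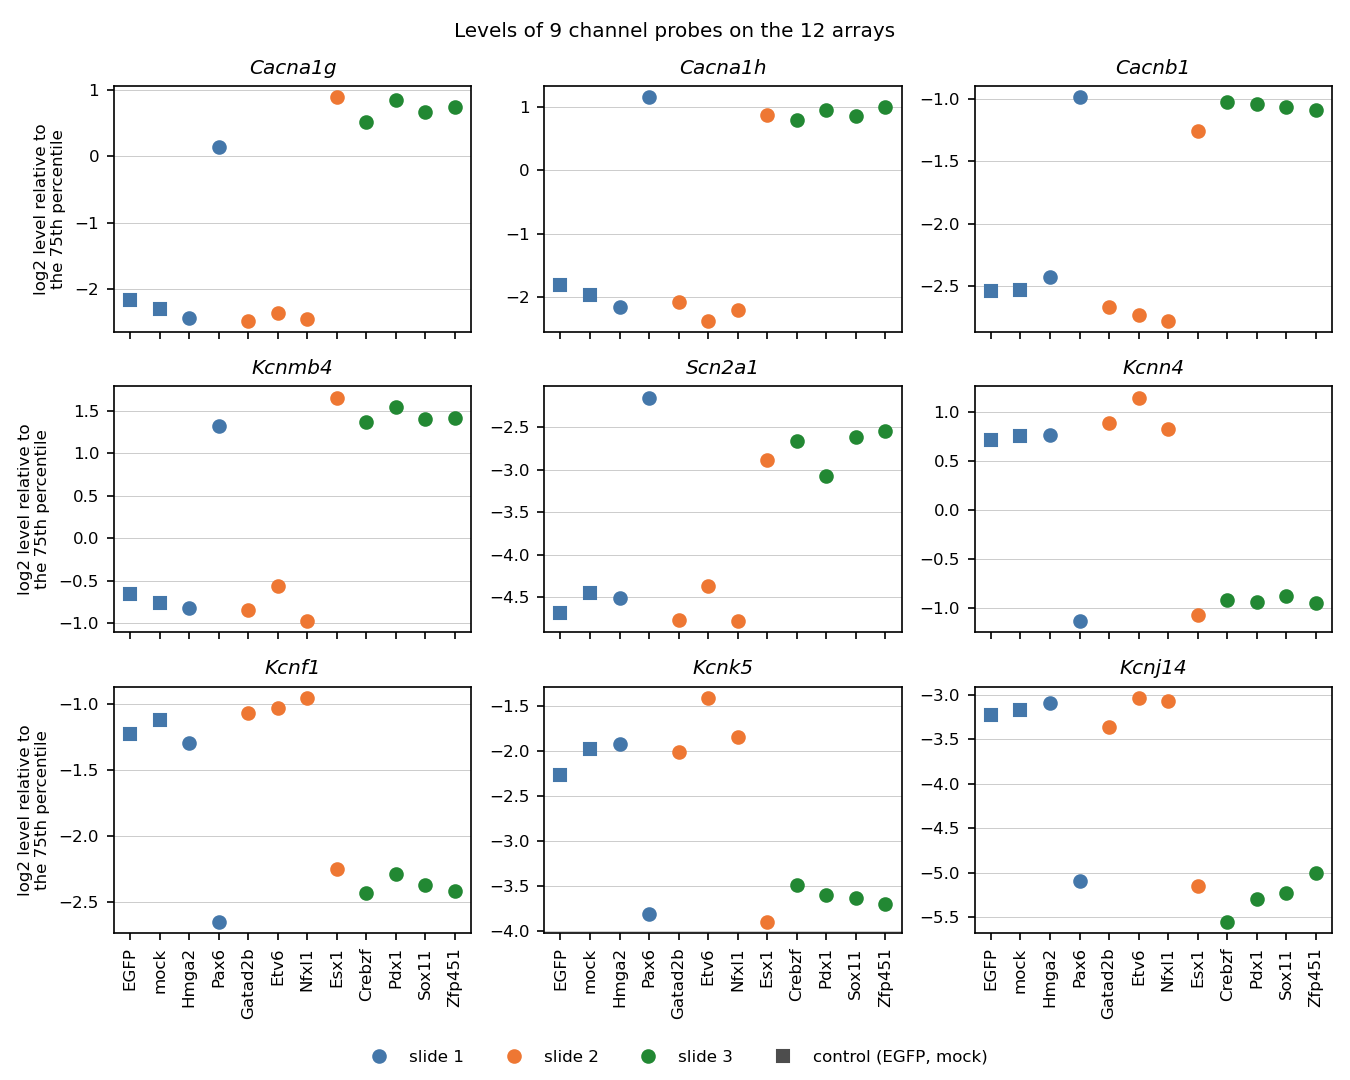
Level of 9 channel probes on the 12 arrays (log2 relative to the array's 75th percentile), coloured by slide, with squares for the EGFP and mock controls. In the panels of Cacna1g, Cacna1h, Cacnb1, Kcnmb4 and Scn2a1 the arrays labelled Pax6, Esx1, Crebzf, Pdx1, Sox11 and Zfp451 lie above all others, and in those of Kcnn4, Kcnf1, Kcnk5 and Kcnj14 they lie below.

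Among the sodium channels, Scn2a1 (now Scn2a), the alpha subunit that carries sodium current in early and unmyelinated axons, was called higher on the 6 arrays by 2 of its 3 probes. The probe at chr2:65695097-65695156 stood at -4.68 on EGFP and -4.45 on mock, and at -4.51, -4.76, -4.36 and -4.78 on Hmga2, Gatad2b, Etv6 and Nfxl1. It stood at -2.15 on Pax6, -2.88 on Esx1, -2.65 on Crebzf, -3.07 on Pdx1, -2.62 on Sox11 and -2.54 on Zfp451. The highest of the first set and the lowest of the second were more than 1 apart, and the folds ran from 2.82 (Pdx1) to 5.33 (Pax6). A probe less than 1 kb away gave 4.1-fold (Pdx1) to 8.03-fold (Pax6). The last Scn2a1 probe, at chr2:65601185-65601244, lies nearer the gene's start by the files' positions and was bright on all 12 arrays, yet it ranged only from -4.88 (Hmga2) to -4.21 (Pax6) and was called on none. It is annotated to a different predicted transcript than the called probes.

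Scn2b and Scn3b, beta subunits, were dim everywhere. Scn1a, a main alpha subunit of mature inhibitory neurons, was called higher on Pax6, Crebzf and Zfp451. Scn4a was bright and not called, and Scn3a, Scn7a, Scn9a and Scn11a were dim everywhere. Under normexp, no Scn1a call was made, and the Scn2a1 probe with every value given was called on 4 arrays in place of 6.

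**Figure D4:**
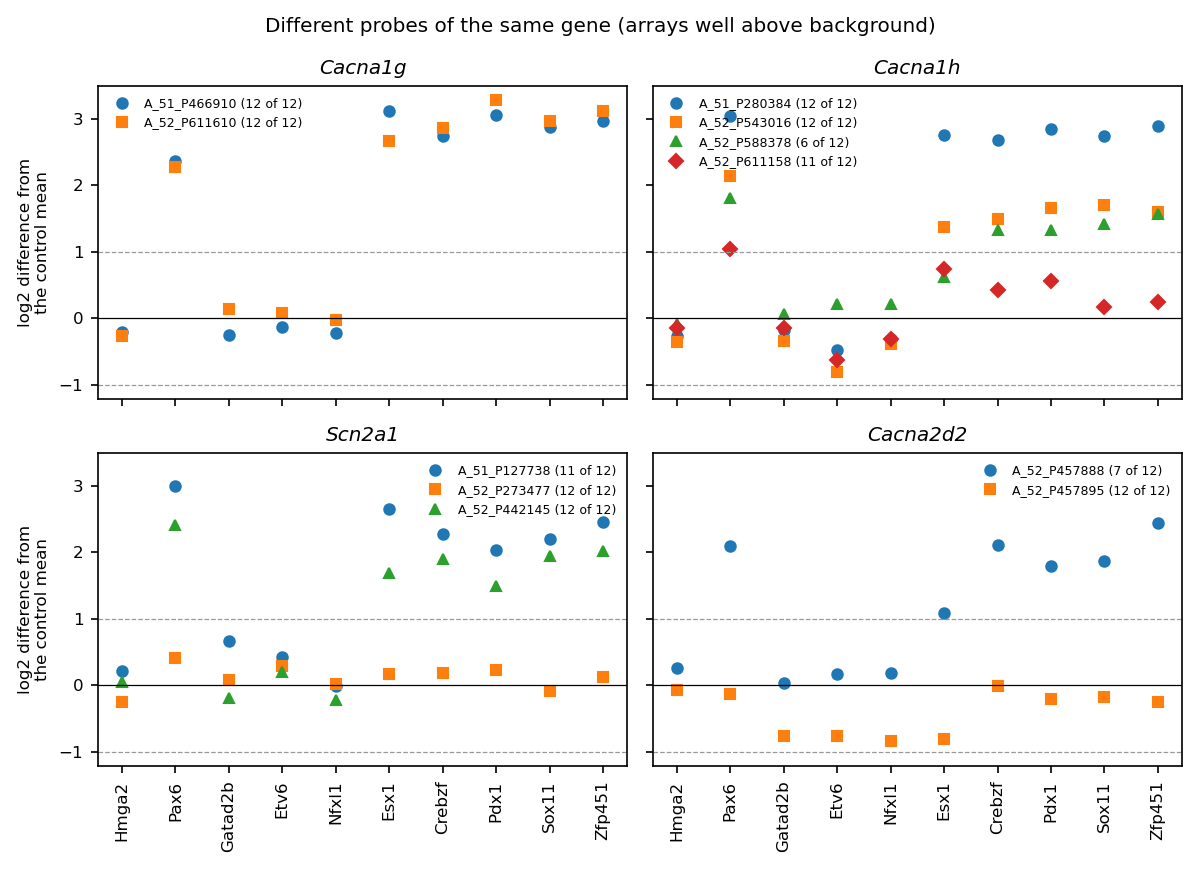
Log2 difference from the control mean on each factor array for the probes of 4 genes that were well above background on at least 1 array, with that number of arrays in the key; dashed lines mark 2-fold. The Cacna1g probes lie together, the Cacna1h probes differ in size, 1 of 3 Scn2a1 probes stays near 0, and the Cacna2d2 probes part on the arrays labelled Pax6, Esx1, Crebzf, Pdx1, Sox11 and Zfp451.

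For 13 of the genes reported here, a pair of probes was bright on all 12 arrays, so that the probes can be compared. The largest gap between the probes' differences over the 10 factor arrays had a median of 0.60 over these genes. It reached 1 or more in Cacna1h (1.39) and Scn2a1 (2.02) only. None of the 13 had opposite calls on the same array. For Cacna1g the gap was at most 0.44 and for Cacna2d1 0.33.

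The potassium channels gated by calcium or sodium included a member higher and a member lower on the 6 arrays with a wide gap to the rest. Kcnmb4, the neuronal beta4 subunit that slows the large-conductance BK channel, stood at -0.66 on EGFP and -0.76 on mock, and at -0.82, -0.85, -0.56 and -0.98 on Hmga2, Gatad2b, Etv6 and Nfxl1. It stood at 1.33 on Pax6, 1.66 on Esx1, 1.37 on Crebzf, 1.54 on Pdx1, 1.41 on Sox11 and 1.42 on Zfp451, or 4.1-fold to 5.16-fold above the control mean. No array lay between -0.56 and 1.33. Kcnma1, which codes for the BK pore that this subunit joins, was dim on every array.

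Kcnn4, the intermediate-conductance channel opened by calcium and known for its role in dividing and non-excitable cells, went the other way. Its level was 0.71 on EGFP, 0.76 on mock, 0.77 on Hmga2, 0.88 on Gatad2b, 1.15 on Etv6 and 0.82 on Nfxl1. It was -1.13 on Pax6, -1.06 on Esx1, -0.92 on Crebzf, -0.94 on Pdx1, -0.88 on Sox11 and -0.95 on Zfp451, which is 3.06-fold to 3.65-fold below the control mean. The ranges were again apart. The calls of Kcnmb4 and Kcnn4 on the 6 arrays were made also under normexp and under a 3-fold rule.

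Kcnt2, a channel opened by sodium, was called higher on the 6 arrays by 1 probe (4.02-fold on Pax6 to 5.24-fold on Esx1) and on 5 of them by another (4.14-fold to 4.83-fold), where EGFP (-5.27) and mock (-6.21) were nearly 2-fold apart. Both lost every call under normexp. Kcnn1 was called higher on Pdx1 only, and 1 of 3 bright or partly bright Kcnt1 probes lower on Crebzf and Sox11. Kcnn3 was dim everywhere.

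Since Kcnmb4 and Kcnn4 moved in opposite directions on the same arrays, the 250 bases before their RefSeq transcription starts (build GRCm38.p6) are shown, with those of Kcnk5, a two-pore channel described further on that was lower on the same arrays. The table of RefSeq promoters holds 90 of the 121 genes, and these 3 are among the 6 with 1 listed start, a probe bright on all 12 arrays and calls on at least 6 arrays. They lie at chr10:116473524-116473773 (minus strand), chr7:24370013-24370262 (plus strand) and chr14:20181783-20182032 (minus strand). Capitals mark matches to the searched motifs, on either strand.
Kcnmb4: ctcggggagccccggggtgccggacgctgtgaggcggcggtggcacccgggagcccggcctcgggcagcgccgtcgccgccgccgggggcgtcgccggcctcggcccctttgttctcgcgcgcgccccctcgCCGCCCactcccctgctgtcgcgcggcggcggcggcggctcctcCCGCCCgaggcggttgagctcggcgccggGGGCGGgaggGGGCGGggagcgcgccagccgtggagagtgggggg
Kcnn4: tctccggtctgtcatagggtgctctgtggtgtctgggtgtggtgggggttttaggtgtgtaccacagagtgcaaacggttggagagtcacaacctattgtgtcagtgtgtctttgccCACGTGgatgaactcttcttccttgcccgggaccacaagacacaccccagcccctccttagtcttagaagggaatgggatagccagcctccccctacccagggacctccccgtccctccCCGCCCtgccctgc
Kcnk5: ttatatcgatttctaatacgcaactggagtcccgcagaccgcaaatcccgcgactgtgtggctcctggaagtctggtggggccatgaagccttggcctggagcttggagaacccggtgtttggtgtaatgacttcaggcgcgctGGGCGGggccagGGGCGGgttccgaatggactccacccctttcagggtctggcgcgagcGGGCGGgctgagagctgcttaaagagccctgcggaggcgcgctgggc
The 8 motifs searched were the GC box (GGGCGG), core promoter box at which the TATA-binding protein sits (TATAAA), NF-Y box (CCAAT), cyclic AMP response element (TGACGTCA), homeodomain core (TAATTA), SOX core (AACAAT), ETS core (CGGAAG) and E-box (CACGTG). The Kcnmb4 window held 4 GC boxes, Kcnk5 3 and Kcnn4 1, where 32.7% of 32851 promoters held at least 1. Kcnn4 also held an E-box, which 6.02% did. The other motifs, held by 12.4% (TATAAA), 33.8% (NF-Y box), 1.55% (cyclic AMP response element), 4.84% (homeodomain core), 9.42% (SOX core) and 13.6% (ETS core) of promoters, had no match in these 3 windows. Of the windows of the other 3 eligible genes, Kcnc4 held 1 GC box, Kcnf1 held no motif, and Kcnt2 held no GC box and 2 NF-Y boxes. Kcnmb4 was 83.6% G and C, Kcnk5 62.8% and Kcnn4 58.8%, where the median over all promoters was 52.4%. A match is a run of letters and no evidence of binding.

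The pore-forming Kv subunits, the classical voltage-gated potassium channels, were the largest family, and many were dim. Of 36 genes, 10 had a probe bright on all 12 arrays and 18 had none bright anywhere, among them Kcna1, Kcna2, Kcna5, Kcna6, Kcnb2, Kcnc1, Kcnd2, Kcng4, Kcnh1, Kcnh5, Kcnh7, Kcnh8, Kcnq3, Kcns1, Kcns3, Kcnv1 and Kcnv2. The list holds the main axonal Kv1 genes. In this family 3 genes were called higher on some array and 4 lower. By probe these were 4 and 4 of 53, where 21.7% of all probes were called on some factor array in either direction.

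Kcnc2, a fast Kv3 channel of rapidly firing neurons, was called by 2 probes that were well above background on the 6 arrays and on no other. There they were at least 2.63-fold (Pax6) to at least 6.39-fold (Esx1) above the controls. Neither was called under normexp. Another Kcnc2 probe was well above background on EGFP, mock and Esx1 only and was not called. Kcna4 was called higher on Pax6 and Zfp451.

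Kcnf1, a silent subunit that forms no channel alone and modifies Kv2 channels, was lower on the 6 arrays. Its level was -1.23 on EGFP, -1.12 on mock, -1.30 on Hmga2, -1.07 on Gatad2b, -1.04 on Etv6 and -0.96 on Nfxl1. It was -2.65 on Pax6, -2.25 on Esx1, -2.44 on Crebzf, -2.29 on Pdx1, -2.37 on Sox11 and -2.42 on Zfp451, or 2.11-fold to 2.78-fold below the control mean. These ranges did not meet.

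Kcnc4, another Kv3 channel, was lower too, but less cleanly. It stood at -4.86 on EGFP and -4.99 on mock, and between -5.86 (Hmga2) and -5.29 (Gatad2b) on the arrays where it was not called. On the 6 arrays it stood between -6.75 (Sox11) and -6.07 (Pax6), 2.21-fold to 3.55-fold below the control mean. All factor arrays lay below both controls, and the gap between Hmga2 and Pax6 was small. Under normexp Kcnc4 was called on no array and Kcnf1 on 1. Kcnh6 was lower on Nfxl1, by at least 2.28-fold, and on Sox11, by 2.39-fold. Kcnd3 was lower on Sox11. Kcna7, Kcnd1, Kcnh2, Kcnq1 and Kcnq5 were bright and not called, with differences from -0.86 to 0.92.

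The auxiliary Kv subunits were called in the higher direction only, 6 of 12 genes. By probe these were 6 of 17, where 21.7% of all probes were called on some factor array in either direction. Kcnab1 and Kcnab2 code for the cytoplasmic beta subunits of Kv1 channels. Kcnab1 was 2.65-fold (Pax6) to 5.06-fold (Pdx1) above the control mean on the 6 arrays, with an outlier flag and no value on Nfxl1. Its other probe was well above background on no array and was not called. Kcnab2 was 3.21-fold (Pax6) to 4.22-fold (Esx1) above the control mean on the 6 arrays. The controls stood at -4.88 and -4.89 for Kcnab1 and at -5.34 and -5.12 for Kcnab2, near the dim end of the array. No pore-forming Kv1 gene other than Kcna4 and Kcna7 was bright on more than 1 array.

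Kcnip1 and Kcnip3 are calcium-binding proteins that join Kv4 channels. Kcnip1 was at least 3.35-fold (Pax6) to at least 5.26-fold (Esx1) higher on the 6 arrays, and dim on the other factor arrays and on mock. Kcnip3 was 2.81-fold (Zfp451) to 3.46-fold (Pdx1) higher on its bright probe, and its second, dimmer probe was not called. Kcne1l, a small membrane subunit of the KCNE family, was at least 4.48-fold (Zfp451) to at least 5.02-fold (Crebzf) higher on Esx1 and the slide 3 arrays. On Pax6 its level was -6.30, at least 1.29-fold above the controls and not called. Of these auxiliary subunits, only Kcnab1 had calls under normexp, on 3 arrays. Kcnab3 and Kcne3 were bright and not called, and Kcnip2 and Kcnip4 were dim everywhere.

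Of the 14 inward rectifiers, which hold the resting potential, 3 were called lower on some array and 2 higher. By probe these were 3 and 2 of 23, where 21.7% of all probes were called on some factor array in either direction. Kcnj14 (Kir2.4) stood at -3.23 on EGFP, -3.17 on mock, -3.09 on Hmga2, -3.36 on Gatad2b, -3.03 on Etv6 and -3.07 on Nfxl1. It stood at -5.09 on Pax6, -5.15 on Esx1, -5.55 on Crebzf, -5.29 on Pdx1, -5.23 on Sox11 and -5.00 on Zfp451, which is 3.5-fold (Zfp451) to 5.09-fold (Crebzf) below the control mean. The ranges were more than 1 apart. Under normexp the call was made on 1 array. Kcnj15 was lower on Esx1, Crebzf, Pdx1 and Sox11.

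Kcnj12 (Kir2.2), the classical strong rectifier of muscle and neurons, stood apart on Etv6. It was -2.70 there, 3.9-fold above the control mean, and between -4.93 and -4.27 on EGFP, mock, Hmga2, Pax6, Gatad2b and Nfxl1. On Esx1 and the slide 3 arrays it was lower, from -6.03 on Zfp451 to -5.23 on Esx1, and it was called lower on Zfp451 (2.57-fold). Under normexp neither call was made, and under the 3-fold rule that on Zfp451 was not. Kcnj4 (Kir2.3) was bright and not called. Kcnj1, Kcnj2, Kcnj3, Kcnj5 and Kcnj10 were dim everywhere, the last being the main potassium channel of astrocytes.

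The two-pore-domain channels carry the background leak of potassium. Kcnk5 (TASK-2) stood on its bright probe at -2.27 on EGFP, -1.98 on mock, -1.92 on Hmga2, -2.01 on Gatad2b, -1.41 on Etv6 and -1.85 on Nfxl1. It stood at -3.81 on Pax6, -3.89 on Esx1, -3.48 on Crebzf, -3.60 on Pdx1, -3.63 on Sox11 and -3.70 on Zfp451, 2.57-fold to 3.41-fold below the control mean. A gap of more than 1 separated these sets. Its dimmer probe was well above background on EGFP, mock, Hmga2, Gatad2b, Etv6 and Nfxl1 and on none of the 6. Kcnk1 was called lower on Pax6, Esx1, Pdx1 and Sox11, and 1 of 2 Kcnk3 probes on Pdx1.

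Kcnk6, a two-pore channel found mainly in endosomes and lysosomes, stood highest on Nfxl1. Its level was -4.58 on EGFP, -4.72 on mock and -2.48 on Nfxl1, 4.5-fold above the control mean. It reached -3.68 on Hmga2, -4.51 on Gatad2b, -4.56 on Etv6, -3.62 on Pax6, -3.03 on Esx1, and between -3.64 and -3.51 on slide 3. The calls fell on Nfxl1, Esx1, Crebzf, Sox11 and Zfp451, and the uncalled Hmga2, Pax6 and Pdx1 arrays lay close to the lowest called one. Kcnk7, which forms no channel on its own in cell systems, was called higher on Etv6 (2.92-fold) by its bright probe, which was also called on Pax6 and Crebzf. Its other probe was called on Pax6, Crebzf, Sox11 and Zfp451. Under normexp, Kcnk5 was called on 2 arrays, Kcnk6 on 1 and Kcnk7 on none. Kcnk12 and Kcnk13 were bright and not called, and Kcnk16 was dim everywhere.

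Slide 2 allowed a comparison within a slide. Of the 33 channel probes called on the array labelled Esx1, 24 were also at least 2-fold from each of the other 3 arrays of its slide in the same direction. Of all 5337 probes called there 76.2% were, so the channels' count is near the background. The comparison of Pax6 with both controls lies within slide 1. Centring each slide on its own mean per probe removes any level that all arrays of a slide share. The calls on slide 3, where every array carried the pattern, then went to 0 on Crebzf, Pdx1 and Zfp451 and 1 on Sox11. Slide 3 held no control, so this setting cannot show whether its arrays differ from the controls.

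A probe counted as specific to an array if its level there lay 2-fold or more outside the range of the remaining 11. Of the channel probes 6 were (3.08%, against 2.62% of all probes). They were Kcnj12 on Etv6 (where 0.316% of all probes were specific), 1 on Sox11 (0.121%), 3 on Gatad2b (0.359%) and 1 on mock (0.24%). Those on Gatad2b were Cacna1i (level -3.87), Kcne4 (-4.94), a KCNE subunit that damps Kv1 currents, and Kcnj16 (-5.22), a partner of other Kir subunits, and each was well above background on that array alone. They were at least 6.97-fold, at least 3.31-fold and at least 2.74-fold above the controls. The other Kcnj16 probes showed no such rise. The probe on mock was Cacna1e at -5.31. Between the controls themselves, 4 channel probes were at least 2-fold apart (2.05%, against 0.93% of all probes), and all were higher on mock: Cacng6, Cacna1e, Kcnj9 (-3.40 on mock, -5.95 on EGFP) and Scn10a. Kcnj9 was called on no array, and it stood at -3.48 on Pdx1.

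Excitability also depends on genes outside the rule: pacemaker channels, pumps, anchoring and regulatory proteins. Of a list of 37, all were on the array and 24 were bright on all 12 arrays. Genes called higher numbered 4 on Pax6, 1 on Etv6, 2 on Esx1, 2 on Crebzf, 3 on Pdx1, 3 on Sox11 and 2 on Zfp451. Genes called lower numbered 1 on Hmga2, 3 on Esx1, 1 on Nfxl1, 4 on Crebzf, 2 on Pdx1, 3 on Sox11 and 1 on Zfp451. On the 6 arrays, 6.56% to 7.52% of all probes were called higher and 4.65% to 5.81% lower, so these counts are close to the background. Gem, a small GTPase that holds back calcium channels at the beta subunit, was called higher on Pax6, Esx1, Pdx1 and Sox11 (1.01 to 1.43). Its differences on Crebzf (0.98) and Zfp451 (0.99) fell just short of a call. Ank3, which anchors sodium channels at the axon's start, was called higher on Pax6 (1.09). On the others of the 6 arrays it differed by 0.89 to 0.98, just short of a call. Rest, the repressor of many neuronal channel genes, differed by -0.16 to 0.46 and was called on none. Nalcn, Unc80, Fgf12, Rem1 and Lgi1 were dim everywhere.

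Markers of some other cell types were called on the same arrays. Of all probes, 6.56% to 7.52% were called higher there and 4.65% to 5.81% lower. Against these shares, a count of 1 or 2 genes in lists as short as those in this and the next paragraph says little. Of 13 neuron markers, 4 were called higher and 2 lower on Pax6, 5 higher and none lower on Pdx1, and 4 higher and 1 lower on each of Esx1, Crebzf, Sox11 and Zfp451. Snap25 and Syt1, of the synaptic vesicle machinery, were higher by 2.39 to 3.22 on the 6 arrays. Stmn2, dim on both controls, was at least 6.12-fold (Pax6) to at least 18.9-fold (Esx1) higher. Nefl was called lower on 5 of the 6, and Tubb3 differed from the controls by -0.63 to -0.11 on them. The summed signal of the neuron list, relative to the 75th percentile, was 5.99 to 7.60 on the 6 arrays and 5.76 to 9.38 on the other 6. Syn1 alone made up 65.0% to 86.6% of it, and it was called on none of the 6 arrays. Dcx and Elavl3 were bright on 1 array each and Nefm on none.

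The astrocyte list (9 genes) summed to 17.8 to 21.4 on the 6 arrays and 7.03 to 8.25 on the others, where Apoe gave 38.5% to 57.8% of the sum on the 6 arrays, with Gfap bright on 1 array and Gjb6 on none. The fibroblast list (9 genes) summed to 246.5 to 264.6 against 102.8 to 115.7, with 4 to 7 of its genes called higher and none lower on each of the 6. The skeletal and cardiac muscle list (12 genes) summed to 5.05 to 6.96 against 15.9 to 19.0, of which Tnnt2 gave 55.7% to 96.8%. On each of the 6 arrays 4 to 6 of its genes were called higher. Tnnt2 was called lower on all 6 (differences of -2.61 to -2.02) and Myod1 on Pdx1, by at least 2.39-fold. Myh3 and Myh6 were dim everywhere. The smooth muscle list (6 genes) summed to 28.7 to 47.2 against 22.2 to 28.6. Of 10 genes of the oligodendrocyte lineage, 1 to 3 were called higher and 0 to 2 lower on the 6 arrays, and the sum was 3.75 to 4.75 against 2.997 to 3.86. Of 6 microglia and macrophage genes, 1 or 2 were called higher there and none lower. None of 5 endothelial and 5 pluripotency genes was called on any array. Of the 10 neural progenitor markers, 0 or 1 were called higher and 0 to 2 lower on each of the 6 arrays. There Nes differed by -1.51 to -1.08, Msi1 by -1.11 to -0.53 and Prom1 by -0.61 to -0.32. Notch1 differed by 0.46 to 0.73, Sox2 by 0.03 to 0.72 and Vim by -0.23 to 0.06. Fewer cells of a type and less RNA per cell cannot be told apart in such bulk samples, and the part of these markers in the channel differences was not tested.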

How the data were processed

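Total RNA from 12 cultures, 1 per group, was labelled with Cy3 from 0.25 µg and hybridised to one-colour Agilent whole mouse genome arrays, per the labels' protocols. The authors deposited spot tables made with Agilent Feature Extraction 10.7.3.1, where, per the file headers, each spot has a background-subtracted processed signal, an intensity on the linear scale. The deposited files also hold other columns, the flags for outlier and well-above-background spots, which the image software set. The deposited value table equals the processed signal in all 45018 rows of each array, with column medians of 38.6 to 67.1. The sources used here name no later normalization by them.

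Outlier spots (61 to 104 per array) were left out, repeat spots averaged on the log2 scale, and each array's 75th percentile subtracted, from the deposited intensities (Python 3.11.15, numpy 2.4.6, pandas 2.3.3). Each array was floored at its dimmest spot well above background (-6.96 to -6.45), which limits the fold of dim probes. Calls needed a 2-fold difference from both controls. Probes were named by RefSeq accession (152), symbol (40) or synonym (3). Values are given for genes called on at least 5 factor arrays, for 3 genes per array and direction, ranked by the smaller of their differences from EGFP and mock, for probes specific to 1 array and for genes whose probes disagree. Other members are given by name, count or range. Counts cover all members, and some genes that meet the rule are not reported here. The probes that differ between the controls and the comparison within slide 2 were chosen after their values were seen. The members and gene lists were chosen with earlier results of these data known. Alternatives were quantile normalization, centring on the median of bright probes, normexp with an offset of 50 (R 4.3.3, limma 3.58.1), no floor, bright probes only, a 3-fold rule, each control alone, the other 9 factor arrays as reference, and the slide as a block. The number of arrays limits the precision. The rule for calls against both controls was tested on simulated data in which every probe was bright. The rules for specific probes, for the control pair and for dim probes were not.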

Additional observations from a re-analysis of the deposited data

Results flagged for a closer look

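1 probe reported here was called higher on 1 factor array and lower on another. Kcnj12 differed from the control mean by 1.96 on the array labelled Etv6 and by -1.36 on that labelled Zfp451. With 1 array per group, the difference between these arrays was not tested.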

How the results depend on the processing

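No paired analysis was possible because each group holds 1 array, and for the same reason no replicate could be left out. Centring on the median of bright probes left all 12 counts within 1.5 times. Quantile normalization gave 1 call on Hmga2 in place of 0, and on Pax6 23 higher and 12 lower in place of 25 and 6. Normexp gave 12 calls on Pax6, 0 on Gatad2b, 1 on Etv6, 9 on Esx1 and Crebzf, and 8 on Pdx1, Sox11 and Zfp451, with 0 probes apart between the controls and 1 specific probe. Of the 18 probes called higher on at least 6 arrays, 5 kept this under normexp, and of the 5 lower, 1 did. A 3-fold rule gave 15 on Pax6, 2 on Gatad2b and Etv6, 17 on Esx1, 18 on Crebzf, Pdx1 and Zfp451 and 21 on Sox11, with 1 between controls and 2 specific. Among 62 bright channel probes, 19 were called on Pax6, 1 on Gatad2b and Nfxl1, 20 on Crebzf, 23 on Sox11 and 22 on Zfp451. With these probes 0 were apart between controls and 2 specific. The shares of all 24410 bright probes called were 16.7% on Pax6, 0.938% on Gatad2b and 0.823% on Nfxl1. On Crebzf, Sox11 and Zfp451 the shares of all bright probes were 15.1%, 15.3% and 14.8%. No floor gave 1 on Hmga2, 8 on Gatad2b, 5 on Nfxl1, 10 between controls and 12 specific. EGFP alone gave 4 on Hmga2 and 5 on Nfxl1, and mock alone 4 on Hmga2, 9 on Gatad2b, 10 on Etv6 and 7 on Nfxl1. The slide as a block gave 2 on Gatad2b, 0 on Crebzf, Pdx1 and Zfp451 and 1 on Sox11, and Kcne1l on Zfp451 turned to -0.0047. Against the median of the other 9 factor arrays there were 5 calls on Pax6, 34 on Hmga2 and Gatad2b, 30 on Etv6, 3 on Esx1, 33 on Nfxl1, 3 on Crebzf, 5 on Pdx1, 4 on Sox11 and 3 on Zfp451, where the reference itself holds at least 5 of the 6 arrays. There, 21 differences of named probes changed sign. On Pax6 they were Kcnab1 at -0.78, Kcnc2 at -0.47 and -0.28, Cacna1g at -0.40 and -0.38, Kcnip1 at -0.25, Kcnab2 at -0.11, Kcnmb4 at -0.044, Kcnt2 at -0.013 and Kcnc4 at 0.022. On Esx1 they were Cacna2d2 at -0.70, Cacnb1 at -0.17, Cacna1h at -0.12 and Kcnf1 at 0.037. On Pdx1 both called Scn2a1 probes stood at -0.19 and -0.17. The rest were Kcnk5 at 0.12 and Cacna1h at -0.062 on Crebzf, Kcnn4 at 0.043 on Sox11, and Kcnj14 at 0.080 and Kcnip3 at -0.12 on Zfp451. Of the 168 calls of named probes, normexp lost 117, the slide block 112, the 3-fold rule 62, quantile normalization 7 and the bright median 3, without a change of sign. The cause of the other changes was not tested. Probes near the floor have only bounds.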

Other observations

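Another 7 probes of 6 channel genes carry older names in the files, which the naming rule does not take, and they were looked at after the values of the members were seen. The transcript now called Kcnmb4os2, annotated as an antisense partner of Kcnmb4, was well above background on all 12 arrays. It was 3.53-fold above the control mean on the array labelled Pax6, 5.12-fold on Esx1, 4.04-fold on Crebzf, 4.37-fold on Pdx1, 4.04-fold on Sox11 and 4.30-fold on Zfp451. On Hmga2, Gatad2b, Etv6 and Nfxl1 its log2 difference lay between -0.37 and 0.20. Kcnmb4 itself was called higher on the same arrays. Kcng1, a silent Kv subunit, was well above background on all 12 arrays and called on none, with log2 differences of -1.05 on Crebzf, -1.10 on Sox11 and -1.18 on Zfp451. The probes of Cacna2d4, Kcnj15, Kcnk9 and Kcnk10 under older names were well above background on at most 2 arrays and called on none.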
